A study of Homo sapiens with 10 samples.

Results

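AP-1 and immediate early genes were followed in the human glioma cell line U87MG, over 10 of its subclones. The list had 10 genes chosen by name: FOS, FOSB, FOSL1, JUN, JUNB, EGR1, EGR2, EGR3, IER2 and DUSP1. Of these, 9 were among the 11880 gene symbols analysed; IER2 was not analysed here. Per the labels, U87MG was plated thinly and single-cell colonies were taken and expanded into separate cultures. These subclones, numbered 1, 2, 3, 5, 6, 8, 9, 10, 11 and 12, carried no treatment or engineered allele and formed 1 group. All were grown attached to plastic in serum-containing medium, collected during logarithmic growth, and detached with trypsin before RNA isolation. The time between trypsin and lysis is not given in the sources used here. Each subclone is 1 clone measured on 1 Affymetrix array, so the spread between cultures of a subclone is unknown, neighbouring subclones in an order cannot be told apart by replicate error, and p-values measure only the spread between these 10 arrays, which may be technical.

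Immediate early genes are transcribed within minutes of a stimulus such as serum, growth factors or stress, without new protein synthesis, and their transcripts decay quickly. FOS and JUN family proteins pair through leucine zippers into AP-1, a transcription factor that binds DNA as a dimer. The early growth response (EGR) proteins are zinc-finger transcription factors induced by the same mitogen-activated protein (MAP) kinase signals. DUSP1 is a phosphatase, itself rapidly induced, that inactivates MAP kinases.

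Values are log2 expression after RMA, a method that corrects background, equalises the probe distributions of the arrays and summarises probes. On this scale 1 unit is a 2-fold difference. The median of all values was 5.00 and is used as a mark for weak signal. The array medians lay between 4.87 in subclone 10 and 5.11 in subclone 9, and the upper quartiles between 6.75 in subclone 10 and 7.36 in subclone 9, with 7.02 in subclone 11. No 2 arrays held identical values (0 pairs). Of the glioma and mesenchymal markers, CD44, CHI3L1, TNC, SPARC, AXL, IL13RA2 and NES had means above the table's median, whereas the glial genes GFAP, SOX2, S100B and OLIG2 lay below it in all 10 subclones. All 4 leukocyte, 5 endothelial and 4 epithelial markers in the table lay below it in all subclones, with list means of 3.42 to 3.89, 3.52 to 4.07 and 3.26 to 3.59, highest in subclones 10, 10 and 11. Of the 4 neuronal markers, SNAP25 and GAD1 had means above it, and SYT1, a synaptic vesicle protein, passed it in subclone 9 alone.

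The start regions of 4 members are shown because 2 of them, FOS and EGR1, varied together and the others, EGR2 and DUSP1, did not follow them. The sequences are RefSeq's, build GRCh38.p14, from 250 bases before to 50 bases after the annotated start. Capitals mark 4 motifs searched on both strands: the CArG box (the site of serum response factor), TGACG (the core of the cyclic AMP response element), TGANTCA (the AP-1 site) and GCGNGGGCG (an EGR site).
FOS, chr14:75278578-75278877, plus strand: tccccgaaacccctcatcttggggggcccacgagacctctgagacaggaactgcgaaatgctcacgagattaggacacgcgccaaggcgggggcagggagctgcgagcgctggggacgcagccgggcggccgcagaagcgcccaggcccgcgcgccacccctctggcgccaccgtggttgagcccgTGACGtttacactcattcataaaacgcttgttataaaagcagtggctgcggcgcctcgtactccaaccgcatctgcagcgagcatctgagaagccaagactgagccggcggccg
EGR1, chr5:138465229-138465528, plus strand: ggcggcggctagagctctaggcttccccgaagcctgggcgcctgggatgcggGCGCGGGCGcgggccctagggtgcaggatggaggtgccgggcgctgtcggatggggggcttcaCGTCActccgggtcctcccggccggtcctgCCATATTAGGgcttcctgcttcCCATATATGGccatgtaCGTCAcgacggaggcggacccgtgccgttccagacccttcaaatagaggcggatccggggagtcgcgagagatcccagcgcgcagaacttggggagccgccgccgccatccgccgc
EGR2, chr10:62816317-62816616, minus strand: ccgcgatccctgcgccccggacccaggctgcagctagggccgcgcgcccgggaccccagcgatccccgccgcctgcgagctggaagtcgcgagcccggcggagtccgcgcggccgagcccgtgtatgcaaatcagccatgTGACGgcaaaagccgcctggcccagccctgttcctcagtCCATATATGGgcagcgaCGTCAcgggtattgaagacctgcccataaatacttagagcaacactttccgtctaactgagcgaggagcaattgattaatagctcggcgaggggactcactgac
DUSP1, chr5:172771146-172771445, minus strand: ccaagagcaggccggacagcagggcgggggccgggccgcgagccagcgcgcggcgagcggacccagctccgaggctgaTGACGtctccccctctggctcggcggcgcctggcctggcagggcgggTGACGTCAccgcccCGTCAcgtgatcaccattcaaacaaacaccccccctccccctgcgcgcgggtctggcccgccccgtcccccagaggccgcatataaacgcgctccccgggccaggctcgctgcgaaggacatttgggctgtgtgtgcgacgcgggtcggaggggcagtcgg

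The EGR1 window held 2 CArG boxes, which began at -105 and -83 from the start, and the EGR2 window shown, the last of 3 annotated for that gene, held 1 at -71. The FOS and DUSP1 windows held 0. FOS had 1 match to TGACG, at -64, on the strand of the gene. DUSP1 had 4 matches to TGACG, of which those at -125 and -122 overlap as the 2 strands of 1 palindrome. Over all 35116 windows of this length, 1.29% held a CArG box, 24.6% TGACG, 7.71% TGANTCA and 9.43% GCGNGGGCG. Of the 9 windows examined for 7 members, 2 held a CArG box, 7 TGACG, 2 GCGNGGGCG and 0 TGANTCA. A match is a description of these letters, and elements outside the window were not searched.

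FOS and EGR1 ordered the subclones in a similar way, and were among the more variable genes of the table. FOS, the founding member of its family, was highest in subclone 12 and lowest in subclones 10 and 11. EGR1, a zinc-finger factor, was also highest in subclone 12 and lowest in subclones 9, 10 and 11. FOSL1, which encodes the FOS relative FRA-1, ran the other way, with its lowest value in subclone 12 and its highest in subclone 9. Over the 10 subclones FOS was at 4.86 ± 1.16 (log2, SD, n = 10), EGR1 at 7.41 ± 0.79 and FOSL1 at 8.22 ± 0.49.

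In detail, FOS reached 6.86 in subclone 12, 6.16 in 1, 5.59 in 3, 5.16 in 5 and 5.04 in 6, and at 4.70 in 2, 4.40 in 8, 4.02 in 9, 3.32 in 11 and 3.31 in 10. It spanned 3.55 log2 units, an 11.7-fold range, and 99.1% of all genes had a smaller SD. It passed the table-wide median in 5 subclones and lay under it in the other 5, and the widest step, 0.70, lay between subclones 9 and 11. The low end thus lies in the weak-signal range. The arrays of subclones 10 and 11, with the lowest FOS values, also had the lowest upper quartiles, whereas that of subclone 9, next lowest for FOS, had the highest. With each array's median subtracted, the SD of FOS was 1.14. The part of signal strength on those arrays in the low FOS values was not tested.

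EGR1 was at 8.45 in subclone 12, 8.18 in 3, 7.96 in 1, 7.70 in 5, 7.66 in 6, 7.59 in 2 and 7.45 in 8, and at 6.46 in 11, 6.44 in 10 and 6.17 in 9. The subclones formed 2 sets with a step of 0.99 between subclones 8 and 11, and all 10 lay above the table's median. The range was 2.29 log2 units, or 4.88-fold.

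**Figure D1:**
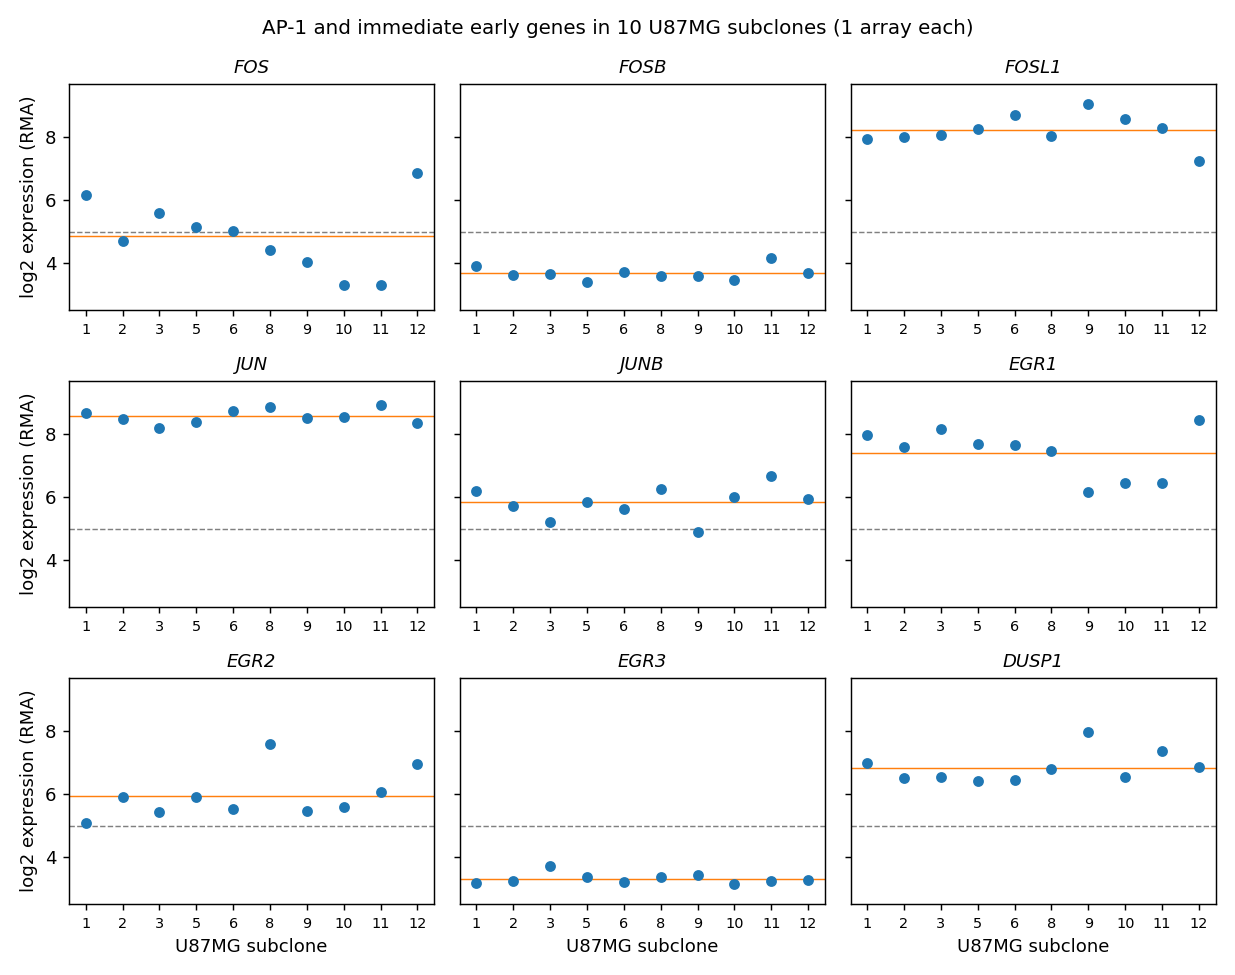
Log2 expression (vertical axis, RMA values) of the 9 genes in each of 10 U87MG subclones (horizontal axis). Each point is 1 array, the orange line is the mean of the gene over 10 subclones and the dashed line the median of the whole table, 5.00; FOS runs from 3.31 to 6.86, EGR1 steps down in subclones 9, 10 and 11, and FOSB and EGR3 stay below the dashed line.

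FOSL1 was at 9.05 in subclone 9, 8.71 in 6, 8.58 in 10, 8.31 in 11, 8.27 in 5, 8.07 in 3, 8.02 in 2 and 8, 7.95 in 1 and 7.25 in 12. Subclone 12 lay 0.69 below the next, and the total range was 3.47-fold. FOSB, the other FOS paralog in the list, stayed between 3.41 in subclone 5 and 4.16 in subclone 11. Its values lay below the table's median in every subclone, so their order is that of weak signals.

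JUN and JUNB differed in their spread. JUN, the main dimer partner of FOS, was at 8.57 ± 0.23 and ran from 8.19 in subclone 3 to 8.93 in subclone 11, a 1.67-fold range; 38.1% of genes had a smaller SD. JUNB was at 5.84 ± 0.51, from 4.90 in subclone 9 and 5.22 in subclone 3 to 6.27 in subclone 8 and 6.67 in subclone 11; 85.4% of genes had a smaller SD. The highest value of both was in subclone 11, where FOS was near its lowest.

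The other EGR genes did not follow EGR1. EGR2, a factor of nerve and myelin development, reached 7.59 in subclone 8 and 6.95 in subclone 12, and lay between 5.10 in subclone 1 and 6.07 in subclone 11 elsewhere. Its range was 5.65-fold, with a step of 0.89 below the upper 2. Subclone 1, which had the second highest FOS value, had the lowest EGR2 value. EGR3 lay between 3.16 and 3.71, below the table's median in every subclone.

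DUSP1 was at 7.98 in subclone 9, 7.36 in 11, 6.87 in 12 and 6.79 in 8, with subclone 1 between 11 and 12, and from 6.41 to 6.56 in the other 5. Subclone 9 was 0.62 above the next. DUSP1 was thus highest in a subclone where EGR1 was lowest.

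A range of at least 4-fold was found in 3 of the 9 genes, FOS, EGR1 and EGR2, compared with 7.71% of all 11880 genes. The median range of all genes was 0.88 log2 units. These are sizes over single arrays, with no test.

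Each subclone was then compared with the mean of the other 9 by limma, a linear model whose variances are moderated across genes, with Benjamini-Hochberg adjustment over all 11880 genes and a threshold of 0.05. The lone array is taken to vary like the other 9, and the 10 comparisons share their arrays. In these 10 fits 0 of 90 member tests passed. The share of all genes that passed was 3.72% for subclone 10, 1.86% for subclone 9, 0.269% for subclone 11, 0.0253% for subclone 12, 0.00842% each for subclones 3 and 5, and 0% for subclones 1, 2, 6 and 8. The 32 genes of subclone 11 became 0 with array medians subtracted or without any one of subclones 2, 3, 5 and 8, and 234 without subclone 10. The 442 of subclone 10, of which 348 were higher, became 30, of which 5 were higher, when genes with a mean below the table's median were left out. At an unadjusted p under 0.05, 8 of 90 member tests passed (8.89%), against 5.65% of all tests in these fits.

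The differences behind those 8 were the following. DUSP1 in subclone 9 was at 7.98 against a mean of 6.72 in the other 9, a difference of 1.26 ± 0.35 (log2, SE; limma adjusted p = 0.104). Without subclone 11, the next highest, the adjusted p was 0.0374. In the same subclone the difference was 0.92 ± 0.41 for FOSL1 (adjusted p = 0.389) and -1.04 ± 0.42 for JUNB (adjusted p = 0.315). Subclone 9 thus combined high DUSP1 and FOSL1 values with low JUNB and EGR1 values.

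EGR2 in subclone 8 exceeded the mean of the other 9, 5.77, by 1.82 ± 0.52 (limma, unadjusted p = 0.00431; adjusted p = 1.00). Subclone 12 differed by 2.23 ± 0.87 for FOS and by -1.08 ± 0.38 for FOSL1 (both adjusted p = 1.00). The others were FOSB in subclone 11, 0.53 ± 0.16 (adjusted p = 0.180), and EGR3 in subclone 3, 0.43 ± 0.11 (adjusted p = 1.00), both weak signals. Missing the threshold does not show that the values were alike.

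The members were next related to one another over the subclones. Correlations are descriptions over 10 arrays that share 1 normalization, and are given without p. The 36 pairs had a mean Pearson r of -0.028, with 17 above 0 and 19 below. Above 0.5 were 4 pairs and below -0.5 were 6. The members were thus not 1 block that moved together.

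The closest pair was FOS and EGR1, with r = 0.91 and a Spearman rho of 0.95. Because EGR1 values fell into 2 sets, r was also taken over the 7 subclones left without 9, 10 and 11, where it was 0.93. It was 0.87 without the 2 subclones farthest from the FOS median, 10 and 12, and between 0.89 and 0.96 when each subclone was left out in turn. After each array's median was subtracted it was 0.91. Among all other genes, FOS ranked 9 of 11879 by r with EGR1, and EGR1 ranked 6 by r with FOS.

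FOSL1 was inversely related to both, with r = -0.69 to FOS (rho = -0.67) and -0.76 to EGR1 (rho = -0.70). Without subclones 9 and 12, the 2 farthest on FOSL1, these were -0.45 and -0.48. Without subclones 9, 10 and 11 they were -0.66 and -0.67. JUN and JUNB had r = 0.66 (rho = 0.61). It was 0.33 without subclones 3 and 11, the 2 farthest on JUN, 0.67 without 9 and 11, the 2 farthest on JUNB, 0.68 without 9, 10 and 11, and 0.77 with array medians subtracted. JUN and FOS, the classical partners, had r = -0.49 (rho = -0.55). Without subclones 3 and 11 their r was -0.25. It was -0.50 without 10 and 12, the 2 farthest on FOS, and -0.45 without 9, 10 and 11.

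DUSP1 and EGR1 had r = -0.57 but rho = -0.25. This relation rested on subclones 9 and 11, since r was 0.37 without them and 0.40 without 9, 10 and 11. The pair EGR1 and EGR2 had r = 0.19, and FOS and EGR2 had r = 0.06.

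**Figure D2:**
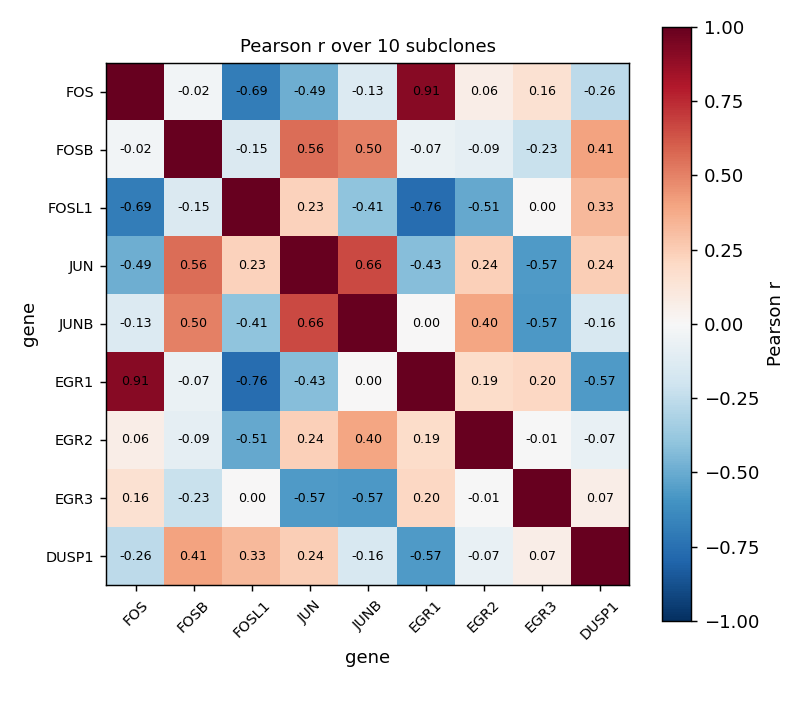
Pearson r over 10 subclones for each pair of the 9 genes, on a scale from -1 (blue) to 1 (red). FOS and EGR1 stand out at 0.91, FOSL1 is negative to both (-0.69 and -0.76), and the other cells have no common sign.

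**Figure D3:**
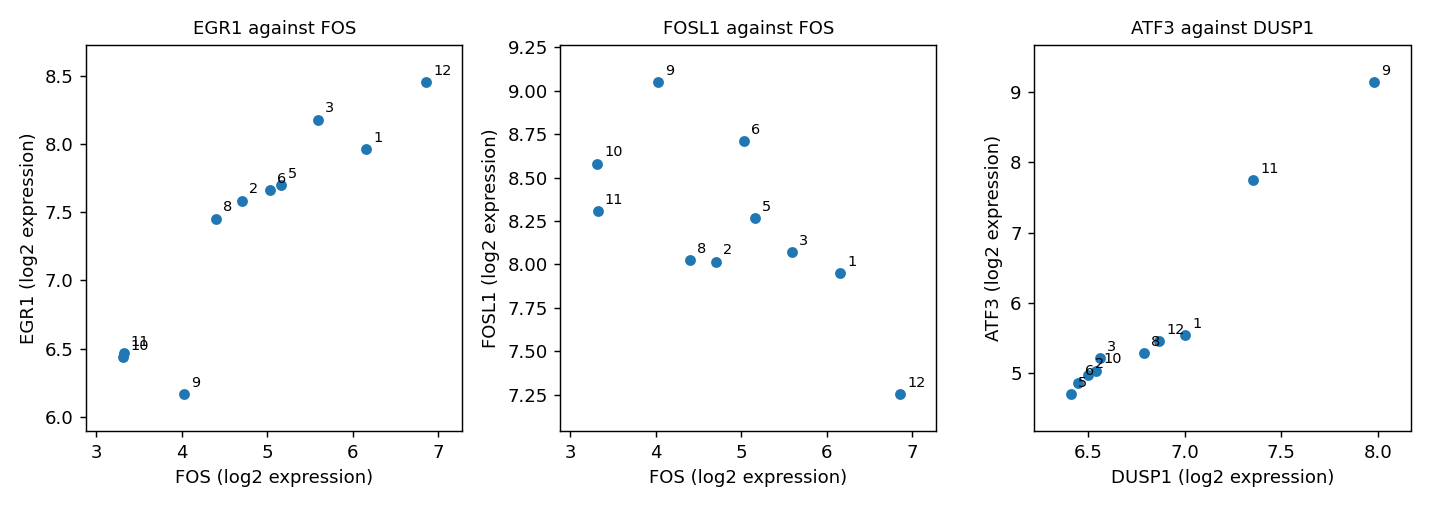
Log2 expression of EGR1 against FOS (left), FOSL1 against FOS (middle) and ATF3 against DUSP1 (right), on the axes named, with 1 point per subclone and its number beside it. Subclones 9, 10 and 11 lie apart at the lower left of the left panel, and subclones 9 and 11 lie far above the other 8 in the right panel.

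To test these relations against all genes, every gene was regressed on the level of each member in turn by limma, with adjustment over the other 11879 genes. Of 72 ordered member pairs 1 passed, the slope of FOS on EGR1, at 1.34 ± 0.19 log2 units per log2 unit (SE; adjusted p = 0.0356). The reverse slope, EGR1 on FOS, was 0.62 ± 0.10 (adjusted p = 0.137). At an unadjusted p under 0.05, 8 of 72 passed (11.1%), against 9.68% of all tests, a share near the background. The 72 tests take each of the 36 pairs in both directions, with the same r, and are not separate. FOS with EGR1, FOS with FOSL1 and FOSL1 with EGR1 passed in both directions. JUNB on JUN and EGR1 on DUSP1 passed in that direction only. The share of all genes passing at the adjusted threshold was 0.227% for DUSP1, 0.0505% for EGR1, 0.00842% for FOS, and 0% for each of FOSB, FOSL1, JUN, JUNB, EGR2 and EGR3. These counts depended on single arrays. The 27 genes called with DUSP1 became 0 without subclone 9 and 117 without subclone 11, and the 6 with EGR1 became 29 without subclone 9. The count of 0 for FOSB, a weak signal, became 1348 without subclone 10 and 811 with array medians subtracted.

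The call of FOS on EGR1 was marginal. It passed in 5 of 15 alternative settings, with adjusted p from 0.0118 without subclone 9 to 0.488 without subclones 9, 10 and 11, and it was lost when any one of subclones 1, 3, 5, 6, 8, 10, 11 or 12 was left out, with an adjusted p of 0.0651 to 0.146. The slope stayed between 1.18 and 2.22.

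The other genes past the threshold with EGR1 were 5. TNFRSF21, a death-domain receptor, S100A2, a calcium-binding protein, and F2R, the thrombin receptor, rose with it, with slopes of 1.20, 0.86 and 1.05. GNG11, a G-protein gamma subunit, and TFPI2, a protease inhibitor of the matrix, fell as EGR1 rose, with slopes of -0.75 and -1.74. All 5 had an adjusted p of 0.0356 by limma, and each call was lost in most alternatives. Of 16 alternatives, TNFRSF21 and F2R passed in 7 and the other 3 genes in 5. None of the 5 passed with a prior without trend, without any one of subclones 1, 3, 5, 8, 10, 11 and 12, or without subclones 9, 10 and 11, where the adjusted p-values lay between 0.645 and 0.855. TFPI2 reached 12.13 (subclone 9), 11.85 (11) and 11.24 (10) but no more than 9.84 elsewhere, so that these genes too separated the 3 subclones with low EGR1. S100A2 and TNFRSF21, which ranked 2 and 3 among all genes by r with EGR1 (0.94 and 0.93), fell to r = 0.56 and 0.58 within the other 7.

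With FOS, 1 gene passed: ENC1, an actin-associated protein, had a slope of 0.72 ± 0.08 (limma adjusted p = 0.0261). ENC1 reached 8.98 in subclone 1 and 8.78 in subclone 12, but only 6.62 and 6.57 in subclones 10 and 11. Its r with FOS was 0.96 over 10 subclones and 0.88 over the 7. The call was lost in 8 of 10 single omissions, kept only without subclone 5 or 12, and lost without subclones 9, 10 and 11 (adjusted p up to 0.269). PARP12, an ADP-ribosyltransferase, was next by r among genes with a mean at or above the table's median and a range of at least 1 log2 unit, and ranked 3 among all genes, at r = 0.92, with 6.41 in subclone 12 and 4.22 in subclone 10 (adjusted p = 0.137).

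DUSP1 had as its nearest gene ATF3, a stress-induced AP-1 family factor, with r = 0.97 and a rho of 1.00 (limma adjusted p = 0.00142). ATF3 reached 9.14 (subclone 9), 7.75 (11) and 5.54 (1), and no more than 5.46 in the others. Over the 7 subclones without 9, 10 and 11, r was 0.95. The call of ATF3 held in 14 of 16 alternatives and was lost without subclone 9 (limma adjusted p = 0.231) and without subclones 9, 10 and 11 (0.388). ADAMTS2, a procollagen protease, was next among genes with a mean at or above the table's median and a range of at least 1 log2 unit, and ranked 6 among all genes, with r = 0.94 (adjusted p = 0.0153). Its call was lost without subclone 2, 5 or 9, and without 9, 10 and 11 (adjusted p up to 0.412).

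For the other members the nearest 2 genes under the same limits of mean and range did not pass. They were GYPC and MGLL for FOSL1 (r = 0.91 and 0.87), TMEM187 and EPOR for JUN (0.91 and 0.88), and CCDC106 and GSTP1 for JUNB (0.87 and 0.86). For EGR2 they were AKR1B10 and EPB41L4B (both 0.87). For the weakly detected FOSB and EGR3 they were NUBP2 and TSC22D4 (0.96 and 0.94) and STK38L and SEPT11 (0.90 and 0.85). Their limma adjusted p-values ran from 0.0559 for NUBP2 to 1.00 for AKR1B10. Among all genes, CCDC106 and GSTP1 ranked only 15 and 23 by r with JUNB. Their r was 0.64 and 0.63 without subclones 9, 10 and 11, where the others named here kept at least 0.80. With array medians subtracted, r with EGR3 was 0.67 for STK38L and 0.70 for SEPT11, and the others kept at least 0.87.

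The wider pathway was read from 7 gene lists, chosen with earlier results of these data known. They describe AP-1 partners, other immediate early genes, MAP kinase feedback, and the kinases and serum response regulators above them. AP-1 targets, EGR partners and targets, and heat shock genes make up the rest. Because of that choice, counts from the lists beside shares of all genes are descriptions and no independent support. In subclone 9 several of these genes were higher than in the other subclones. FOS, EGR1 and JUNB were low there, whereas FOSL1 and DUSP1 were at their highest. JUN was near its mean (8.50 against 8.57). Of 23 AP-1 target genes, 6 were higher in subclone 9 and 1 was lower by limma at the adjusted threshold, beside 1.86% of all genes (179 higher and 42 lower). Of the 4 neuronal markers, 1 was also higher there: SYT1 was at 6.26 in subclone 9 and between 3.34 and 3.76 in the others (limma adjusted p = 1.48e-06). The summed level of that list, its mean log2 value, was 5.73 in subclone 9 and 4.48 to 5.27 elsewhere. The other markers did not rise in the same way. SNAP25 was at 6.76 in subclone 9, below its mean of 7.17 over all subclones. GAD1 (5.56 against a mean of 5.34) and MAP2 (4.32 against 3.96) were slightly above theirs. The part of this list in the result was not tested.

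Among those targets, the collagenase gene MMP1 was at 8.43 in subclone 9 against a mean of 3.67 in the other 9, a difference of 4.76 ± 0.27 (adjusted p = 8.74e-07). The cytokine genes LIF, IL8 and IL11 were higher by 4.78, 4.43 and 3.28 log2 units (adjusted p = 0.000182, 0.00824 and 1.21e-05). The growth factor HBEGF and the protease MMP10 were higher by 1.44 and 0.61, and the gap junction gene GJA1 was lower, at 10.37 against 11.45 (limma adjusted p = 0.0154, 0.0193 and 0.0165). MMP10 lay below the table's median in every subclone, and its call was lost with array medians subtracted (adjusted p = 0.284) and with a prior without trend. These last 3 were named after their values were seen.

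Of 14 AP-1 partners, ATF3 and MAF were higher in subclone 9, by 3.71 ± 0.81 and 1.17 ± 0.19 (limma adjusted p = 0.0405 and 0.00576), although MAF stayed below the table's median. The ATF3 call was lost in 10 of 14 alternatives (adjusted p up to 0.0676), and that of MAF in 1, with array medians subtracted (0.0592). The median range of this list was 0.99 log2 units. JUND, a JUN paralog, ran from 5.50 in subclone 12 to 6.19 in subclone 11, and FOSL2 from 4.71 to 5.50. The small MAFF spanned 7.59 (subclone 12) to 10.15 (9). These 3 were named after their values were seen.

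Of 27 other immediate early genes, 2 were higher in subclone 9, ATF3 again and PTGS2, the inducible cyclooxygenase (9.54 against 4.62, adjusted p = 0.000679). CTGF, a matrix-associated growth regulator, was lower in subclone 10 (4.87 against 7.21, a difference of -2.33 ± 0.50, limma adjusted p = 0.0255; 0.0760 when genes of low mean were left out), whose array had the smallest upper quartile. The list's median range was 1.23. The nuclear receptor genes NR4A2 and NR4A3 lay below the table's median in every subclone, while NR4A1 passed it in subclones 1 (5.06) and 11 (5.59).

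At an unadjusted p under 0.05, 9 of these 27 genes followed FOS in either direction, against 8.05% of all genes, and 10 of 27 followed EGR1, against 8.68%. None passed after adjustment (0 by limma). CTGF had r = 0.84 with FOS and its relative CYR61 0.71, and both were lowest in subclones 10 and 11. ARC, a synaptic immediate early gene, and PPP1R15A, a stress-induced phosphatase subunit, had r = -0.87 and -0.83 with EGR1. ARC reached 6.65 (subclone 9), 5.82 (11) and 5.47 (10) but no more than 4.88 elsewhere. These genes were chosen after their values were seen, and lay on both sides of the FOS and EGR1 ordering.

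MAP kinase feedback genes had a median range of 1.82 log2 units, beside 0.88 for all genes. Of the 11, 5 spanned at least 4-fold, beside 7.71% of all genes. SPRY2, an inhibitor of receptor tyrosine kinase signalling, was higher in subclone 9 (9.92 against 7.86, limma adjusted p = 0.0487), a call lost in 9 of 14 alternatives (adjusted p up to 0.0763). DUSP6, a phosphatase for ERK, reached 9.80 (subclone 11), 9.47 (9) and 9.46 (10), the 3 subclones with low EGR1, but no more than 8.80 elsewhere (r = -0.84 with EGR1, with no call). DUSP10 ran from 5.04 in subclone 10 to 7.67 in subclone 9, with 7.35 in subclone 12. DUSP6 and DUSP10 were named after their values were seen. Of the 11 feedback genes, 2 followed EGR1 at an unadjusted p under 0.05, against 8.68% of all genes. The list's median r with EGR1 was -0.32, beside -0.026 for all genes. This was not particular to feedback genes. The median was -0.36 for AP-1 partners and -0.30 each for other immediate early genes and AP-1 targets. In the remaining lists it lay between -0.04 and 0.08.

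**Figure D4:**
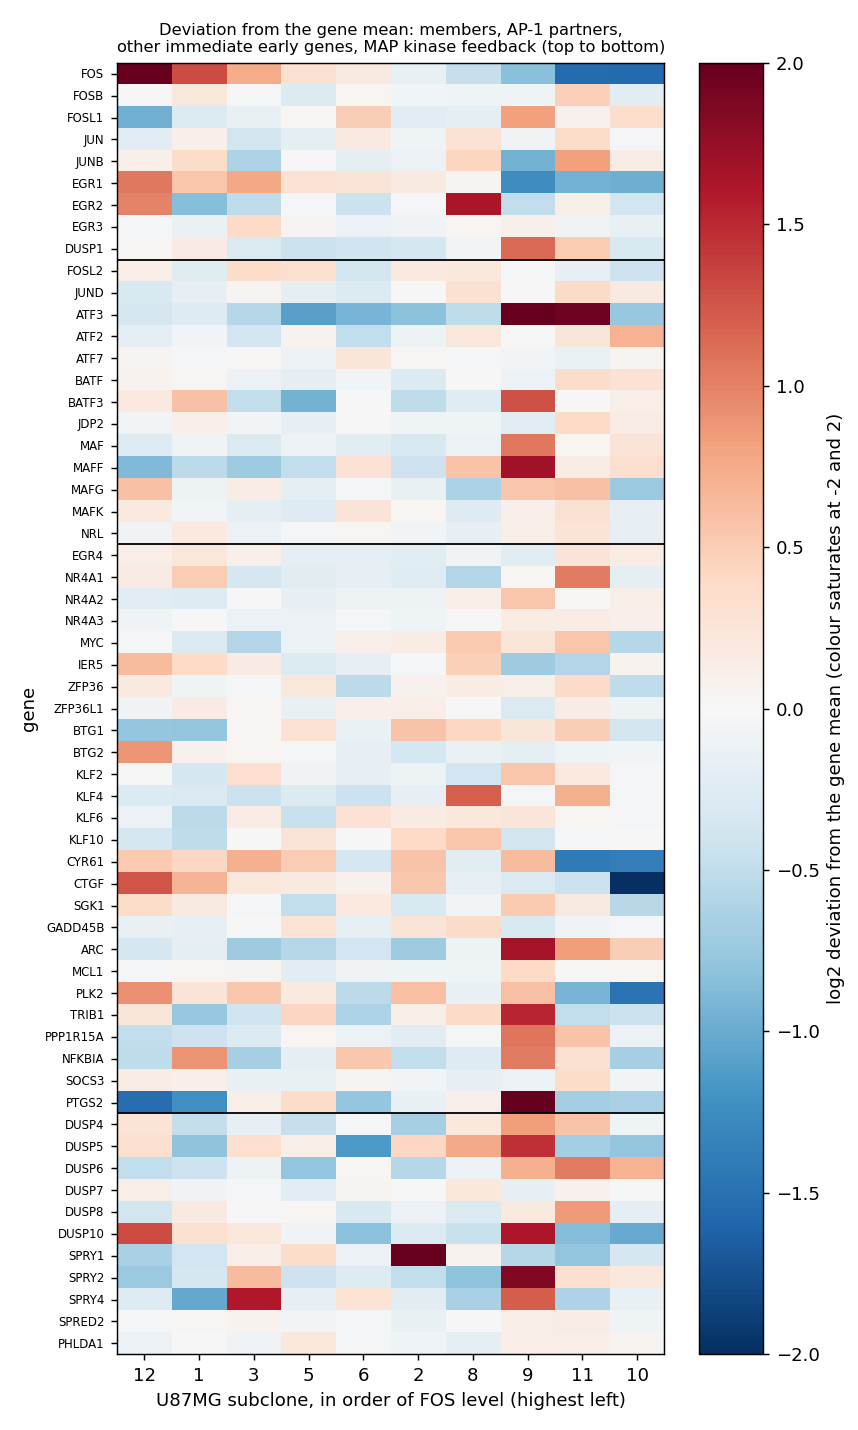
Deviation of each gene from its own mean (log2 units, colour scale limited to -2 and 2) for the 9 members and for genes of the lists of AP-1 partners, other immediate early genes and MAP kinase feedback genes (rows), with subclones in columns from the highest FOS level, subclone 12, to the lowest, subclone 10. FOS and EGR1 pass from red to blue while ATF3, ARC and DUSP6 are red in subclones 9 and 11.

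Regulators above these genes had a median range of 0.79 log2 units, beside 0.88 for all genes. Of 24 kinase, RAS and serum response genes, 0 were called in any subclone by limma and 0 followed FOS or EGR1 at an unadjusted p under 0.05. SRF, the serum response factor gene, lay between 3.85 and 4.27, below the table's median. Transcript levels do not show kinase activity.

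EGR partners and targets had a median range of 1.08 over 9 genes. NAB1, a corepressor that binds EGR proteins, was higher in subclone 9 (6.49 against 5.08), and FN1, fibronectin, was lower (11.72 against 12.59; limma adjusted p = 0.00806 and 0.00497). The related corepressor NAB2 lay between 4.84 and 5.45.

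Because cells were detached with trypsin, heat shock genes that respond to handling were examined beside the members. Their list mean lay between 8.83 in subclone 8 and 9.53 in subclone 12, and 0 of 9 were called in any subclone by limma. Subclone 12 had the highest FOS and EGR1 values and heat shock mean, whereas subclone 9 had the second highest heat shock mean, 9.45, with low FOS and EGR1. HSPH1 had the widest range, from 7.52 in subclone 8 to 9.12 in subclone 9. At an unadjusted p under 0.05, 2 of the 9 followed FOS and 2 followed EGR1, against 8.05% and 8.68% of all genes. The median r of the heat shock list was 0.44 with FOS and 0.08 with EGR1. For all genes it was 0.019 and -0.026. The highest r with both was that of HSPA1A (0.72 and 0.79), which lay between 3.26 and 3.76, below the table's median. It was named after its values were seen. The part of handling in the FOS and EGR1 values was not tested.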

How the data were processed

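Total RNA of 10 U87MG subclones was labelled with biotin and hybridised to 1-colour Affymetrix arrays, per the labels' protocols. For every symbol and array the deposited table gives a single log2 value from RMA, which the submitters' processing notes name; the unit follows from that method and the range of values. How probe sets were joined, and with which software and annotation, is not given in the sources used here. The number of arrays limits the precision. No value was left out or rescaled.

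Members and gene lists were chosen with earlier results of these data known. Each subclone was fitted against the other 9, and all genes on each member, with limma 3.58.1 (lmFit, eBayes with trend) in R 4.3.3, genome-wide over all genes with no filter, Benjamini-Hochberg threshold 0.05; both fits were tested on simulated data. Correlations used numpy 2.4.6 and scipy 1.17.1. Of 129 list entries, 12 were not matched to the table. Named genes were all members; for each, the 2 genes of highest r among those with mean at or above 5.00 and a range of at least 1; and up to 4 called genes per list, or else the one of widest range; others named were picked after their values were seen. Single values of some list genes are not reported here. Sequences are from RefSeq, GRCh38.p14. Alternatives were array centring, other variance priors, filters on low values, and leaving out subclones.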

Additional observations from a re-analysis of the deposited data

Results flagged for a closer look

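In 42 genes examined (members and genes named by rule or called with FOS or EGR1), 11 values lay farther from their nearest neighbour than Dixon's 95% critical value for 10 arrays allows, as a share of the gene's range. Chance marks about 1 group in 20 among genes chosen without regard to any one subclone, and that rate is no yardstick here. Among the members this was EGR3 alone, at 3.71 in subclone 3 with the next value at 3.43, a weak signal. High in subclone 9 were MMP1 at 8.43, IL11 at 7.52, NAB1 at 6.49, LIF at 9.23, PTGS2 at 9.54, MAF at 4.81 and IL8 at 10.60. Low there were FN1 at 11.72 and GSTP1 at 8.74. CTGF was low in subclone 10, at 4.87. All of these except EGR3, a member, and GSTP1 were examined because limma had called them in that same subclone, so their place there follows from the choice.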

How the results depend on the processing

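Alternatives subtracted each array's median, changed the variance prior, filtered on the mean or the highest value, or left out each subclone in turn; leaving out subclones 9, 10 and 11 together, and following each named gene through every setting, were added after seeing the data. The number of members called against the other 9 was 0 in every setting except without subclone 11, where it was 1 (DUSP1 in subclone 9); the range over single omissions was 0 to 1. The number of member pairs called, 1, became 0 with a prior without trend and without subclones 9, 10 and 11. It was also 0 with the filter on the mean, which removes FOS, whose mean is 4.86. Over single omissions it was 0 to 1, and stayed at 1 only without subclone 2 or 9. The mean pairwise correlation of the members, -0.028, was 0.021 with array medians subtracted, 0.0047 without subclones 9, 10 and 11, and -0.065 to 0.0057 over single omissions. The count of members spanning at least 4-fold, 3, was 2 without subclone 8 or without subclones 9, 10 and 11, and 3 otherwise. Counts over all genes moved more: across alternatives they ran from 88 to 256 for subclone 9 (221 as reported), 30 to 750 for subclone 10 (442), 0 to 234 for subclone 11 (32) and 1 to 7 for subclone 12 (3), and at most 8 for any other subclone. For slopes they ran from 0 to 117 with DUSP1 (27), 0 to 29 with EGR1 (6), 0 to 1 with FOS (1) and 0 to 1348 with FOSB (0), and at most 2 with any other member. No call was reversed in these settings. FOSB and EGR3 lie in the weak-signal range, which limits what their order shows. No paired analysis was possible because there is 1 group with 1 array per subclone.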
